A study of Xenopus laevis with 18 samples.

Results

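The transcripts described here are 90 of the 30993 Xenopus rows of the deposited table. They were near zero in the egg and the cleaving embryo, first reached 10 TPM at stage 12 of the Nieuwkoop and Faber (NF) series, and had their highest value in a tailbud embryo. TPM is an abundance per transcript length, relative to a fixed total of 1000000 over all transcripts of a library. Members were chosen from these values alone. Their mean over NF 0, 2, 6, 6.5 and 7 was under 1 TPM, their mean over NF 23, 26, 30 and 33 was at least 10 TPM, NF 12 was the first library at 10 TPM or more, and 1 of the 4 tailbud libraries held the maximum. Of 13397 rows with the low early mean, 1761 met the tailbud mean, 307 of these reached 10 TPM first at NF 12, and 90 were highest in a tailbud library.

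The series sequenced total RNA of whole Xenopus laevis embryos of the J strain after removal of ribosomal RNA, at 18 stages with 1 library per stage. Embryos of every stage were raised in MMR saline with gentamycin and snap frozen, and the labels name no treatment or genetic change. The stage labels give a pre-midblastula window (NF 0 to 7, n = 5), a blastula window (NF 8, 8.5 and 9, n = 3), a gastrula window (NF 10 and 12, n = 2), early neurula (NF 14 and 16, n = 2), late neurula (NF 18 and 20, n = 2), early tailbud (NF 23 and 26, n = 2) and late tailbud (NF 30 and 33, n = 2). No stage was sampled again, so any spread given here is a spread between neighbouring stages and holds real change with time.

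In the frog, the fertilised egg lives on RNA stored by the mother until the embryo's own genome is switched on around the midblastula. Gastrulation then sets up the germ layers, neurulation forms and closes the neural tube, and the tailbud stages build muscle, nervous system, blood and other organs. A whole-embryo library sums over all of these tissues, so more cells of a type and more RNA per cell cannot be told apart. Xenopus laevis also carries a pair of related subgenomes, and no source used here says how reads shared by near-identical gene copies were assigned. The file does not pair its sequence names with gene symbols, and 0 of its names matched the RefSeq table used here, so members are described by their time course and by their rank in mean tailbud TPM.

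A few facts of all libraries bear on these values. In 9 libraries the deposited column summed to 1000000, and in the other 9 it summed to 1.48% to 2.72% more. The 2 early neurula columns are of the first kind and the 2 late neurula columns of the second, so in that comparison the kind of column and the stage cannot be told apart. Xenopus RNA relative to the ERCC spike-ins, synthetic RNAs in each library, was 1.39 at NF 12, 1.50 to 2.09 in the neurula libraries and 2.88 to 4.20 in the tailbud libraries. A level that is steady in TPM across this span is thus a rising level per spike-in. Depth cannot be read from TPM, so no counting error is given.

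The median member was listed at 0 TPM up to NF 8 and rose to 17.1 TPM at NF 12. In the libraries from NF 0 to NF 8 the number of members listed above 0 lay between 25 and 37. Over NF 8.5, 9 and 10 it was 64, 69 and 81. Between NF 8 and NF 8.5, 31 members went from a listed 0 to a value and 4 went the other way, against 1690 and 1225 rows of the whole table. The header names of NF 0 to NF 8 end in a suffix that is not explained, those from NF 8.5 on do not, and its part in the step was not tested.

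Most members were detected before they crossed the onset threshold. At NF 10 their median was 1.62 TPM, 55 of 90 stood at 1 TPM or more, 15 at 5 TPM or more, and 9 were listed at 0. The median step from NF 10 to NF 12 was 2.98 on the scale of log2(TPM + 1). By this measure 86 of 90 members rose 2-fold or more, where 12.3% of the 21670 rows averaging 1 TPM or more did so, a contrast that the choice of members used and from which nothing further is read. These 2 libraries are of different column kinds. Values at NF 12 ranged from 10.04 to 119 TPM, and 48 members were under 20 TPM there.

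**Figure D1:**
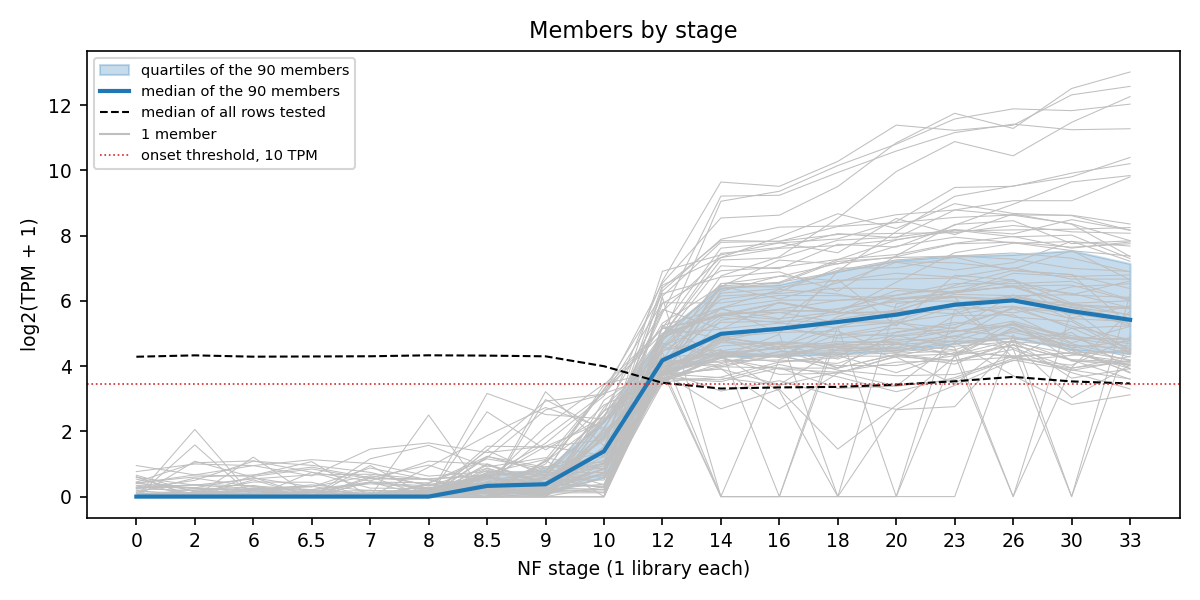
Levels of all 90 members, as log2(TPM + 1), by NF stage with 1 library each. Grey lines are members, the blue line and band their median and quartiles, the dashed line the median of the 21670 rows tested, and the dotted line 10 TPM. The member median climbs from 17.1 TPM at NF 12 to 63.7 TPM at NF 26 and is 41.9 TPM at NF 33, while 7 members drop to a listed 0 after NF 12.

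After NF 12 the climb was steepest to NF 14 and slow from there. The median over members was 30.8, 34.4, 39.9 and 46.8 TPM over NF 14, 16, 18 and 20, and 58.0, 63.7, 50.5 and 41.9 TPM over NF 23, 26, 30 and 33. Over all rows tested the median stayed between 8.94 and 11.7 TPM in the same libraries. The NF 14 value exceeded the NF 12 value in 72 of 90 members, with a median ratio of 1.69. From NF 12 to NF 14, both of the same column kind, 36 members rose 2-fold or more (8.71% of all rows) and 5 fell that far (11.5% of all rows). The choice of members favours this rise, as their maximum must come later. The 217 transcripts with onset at NF 12 that were highest before the tailbud went from a median of 26.0 to 40.0 TPM. From NF 14 to NF 16, also of 1 kind, 1 member rose 2-fold (2.43% of all rows) and 3 fell (2.42%).

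Later steps rarely passed 2-fold in single members. From NF 16 to NF 18, 7 rose and 3 fell that far, against 4.27% and 2.71% of all rows. From NF 18 to NF 20, 11 rose and 2 fell, against 7.22% and 3.50%. Over this last step 64 of 90 members were higher at NF 20. The median log2 step over all 90 was 0.17, where the median over all rows was 0.00. From NF 20 to NF 23, 8 rose and 0 fell, against 7.18% and 3.18%, a direction that the choice of members favours. From NF 23 to NF 26, 4 rose and 5 fell, against 4.04% and 1.80%. From NF 26 to NF 30, 4 rose and 6 fell, against 2.29% and 3.22%, and from NF 30 to NF 33, 3 did each, against 3.41% and 2.78%. Among 65 spike-ins with a mean of at least 10, 1 to 6 moved 2-fold or more in each of the steps from NF 10 on, and each step compares 1 library with 1 library.

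Onset at NF 12 was for most members a small part of the later level. The NF 12 value was a median of 29.7% of a member's maximum (quartiles 13.7% and 48.5%). The ratio of the maximum to the NF 12 value had a median of 3.37 and ran from 1.02 to 288, with 16 members at 10-fold or more and 20 under 2-fold. In TPM, 50% of the maximum was first reached at NF 12 by 19 members, one library later by 28, between NF 16 and NF 20 by 29 and from NF 23 on by 13, and 1 member had passed it at NF 10. Per spike-in, 0 members had done so by NF 12, 4 did so at NF 14, 24 between NF 16 and NF 20, 39 at NF 23 and 23 later. Across members, Spearman rho with the mean tailbud level was 0.53 for the NF 12 value and 0.91 for the NF 14 value. All points share the same libraries. The choice of members also places the maximum in the tailbud, above the earlier values. A positive rho is thus partly built in, and nothing further is read from it.

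The 5 most abundant members stood well apart from the rest. Their mean tailbud levels were 1000 TPM or more, where the median member had 52.7 TPM, 30 members had 100 TPM or more and the lowest had 12.9. The most abundant, XeXenL6RMv10011960m, was listed at 0 in all libraries to NF 8. It had 1.68, 6.61 and 7.84 TPM over NF 8.5, 9 and 10, and 92.5 TPM at NF 12. Over NF 14, 16, 18 and 20 it had 372, 395, 727 and 1841 TPM, and over NF 23, 26, 30 and 33 it had 3451, 2501, 5849 and 8307 TPM. It climbed at each step except that from NF 23 to NF 26.

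The next most abundant, XeXenL6RMv10030903m, had 97.1 TPM at NF 12 and 800.2, 730, 1241 and 2684 TPM over NF 14, 16, 18 and 20. Over the 4 tailbud stages it had 2401, 2679, 5107 and 6118 TPM. Both thus doubled or more between NF 26 and NF 33, where the median member fell from 63.7 to 41.9 TPM. The member of rank 3 followed another course, with 28.6 TPM at NF 12, 531, 657, 1135 and 1791 TPM in the 4 neurula libraries and then 3059, 3793, 3651 and 4194 TPM over the 4 tailbud stages. It was nearly level from NF 26 on.

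The member of rank 4 started lowest of these 5 and grew most of all 90. It was listed at 0 in every library to NF 10, and stood at 17.1 TPM at NF 12 and 108, 163, 369 and 1000.2 TPM over NF 14, 16, 18 and 20. It then had 1890, 1397, 2848 and 4922 TPM over NF 23, 26, 30 and 33, the last of which is 288 times its NF 12 value. The member of rank 5 had 48.3 TPM at NF 12, 593, 603, 980.2 and 1547 TPM in the 4 neurula libraries and 2289, 2740, 2433 and 2485 TPM in the 4 tailbud libraries.

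Together the members took a growing share of the RNA. Of the Xenopus total they made up 0.00112% ± 0.000227 before the midblastula (SD, n = 5), 0.247% at NF 12, 0.728% ± 0.0488 in early neurula (SD, n = 2), 1.33% ± 0.390 in late neurula (SD, n = 2), 2.29% ± 0.0609 in early tailbud (SD, n = 2) and 3.30% ± 0.441 in late tailbud (SD, n = 2). The 5 most abundant members made up 11.5% of the members' sum at NF 12, 56.3% at NF 26 and 72.0% at NF 33. Without them the share was 0.219% at NF 12 and 0.934% at NF 23. It was 1.02% at NF 26 and 1.01% at NF 33, with NF 30 slightly below both. As a net, the rise in the share after NF 26 was thus that of these 5, while rises and falls among the rest balanced. Of the 5, the members of ranks 1, 2 and 4 rose most from NF 26 to NF 33. The member of rank 3 went from 3793 to 4194 TPM, and that of rank 5 fell from 2740 to 2485 TPM.

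**Figure D2:**
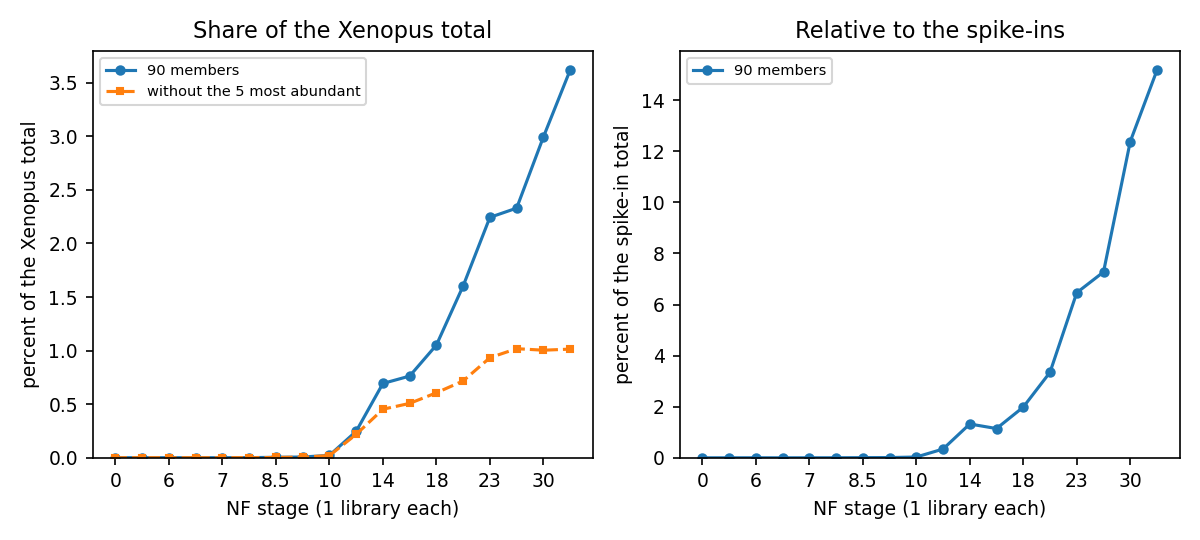
Summed level of the 90 members by NF stage, with 1 library per point. Left, percent of the Xenopus total, with all members (circles) and without the 5 most abundant (squares), which level off from NF 26. Right, percent of the spike-in total, which goes from 0.344% at NF 12 to 15.2% at NF 33.

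Relative to the spike-ins the growth was larger. The members' sum was 1.24% ± 0.126 of the spike-in total in early neurula (SD, n = 2), 6.87% ± 0.573 in early tailbud (SD, n = 2) and 13.8% ± 1.98 in late tailbud (SD, n = 2). From early neurula to late tailbud this is 11.2-fold, and 4.54-fold as a share of the Xenopus total. No test is given, since the choice of members used these windows.

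By the tailbud library with the highest TPM, 17, 46, 10 and 17 members peaked at NF 23, 26, 30 and 33. Members highest at NF 33 had the highest median tailbud mean, 292 TPM against 55.0 for NF 23, 43.3 for NF 26 and 82.3 for NF 30. Not all of them were abundant, as the member of rank 74 had a tailbud mean of 21.1 TPM. Medians of the NF 33 and NF 30 groups were close at NF 12, at 26.9 and 26.0 TPM. They were 54.7 and 40.3 TPM at NF 14 and 33.9 and 47.7 TPM at NF 16. At NF 18 they were 119 and 49.6 TPM, and the NF 33 group stayed the higher from there. Its members differed widely, and its median was the value of rank 35 at NF 16 and of rank 7 at NF 18. The step between these medians is thus not a step of the whole group. The NF 23 group went through 68.4 TPM at its peak to 36.9 TPM at NF 33. The NF 26 group had a low plateau of 27.4 to 36.9 TPM from NF 14 to NF 23, then 54.9 TPM at NF 26 and 36.1 TPM at NF 33. The step from NF 23 to NF 26 joins both kinds of column, and its part in the large NF 26 group was not tested.

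**Figure D3:**
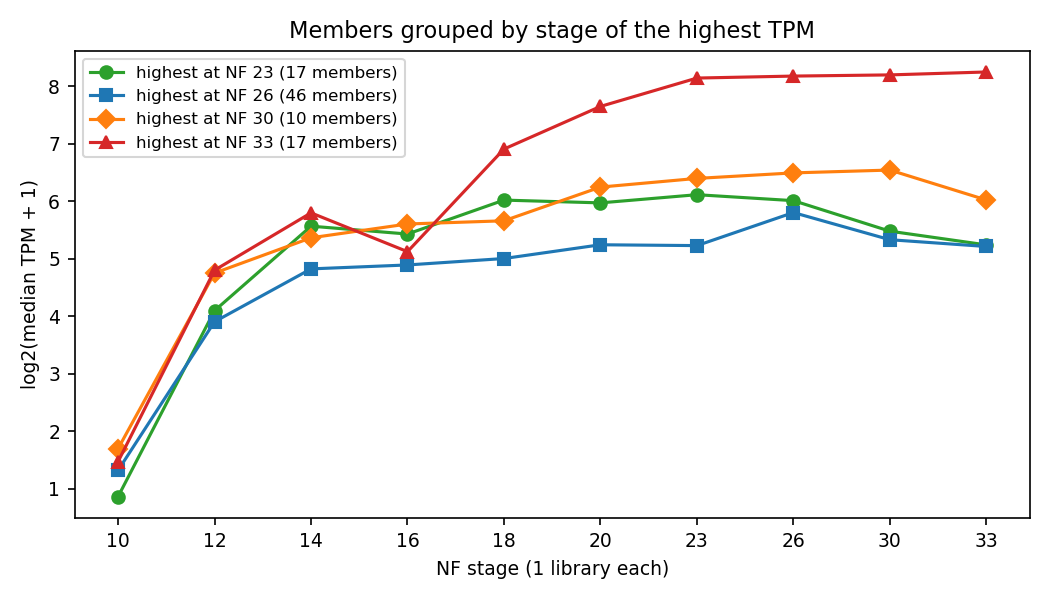
Median level of the members, as log2(median TPM + 1), from NF 10 to NF 33, split by the stage of the highest TPM. The median of the 17 members highest at NF 33 lies above those of the other groups from NF 18 on and reaches 303 TPM. That of the 46 members highest at NF 26 is 54.9 TPM at NF 26.

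The most abundant member of each of the other groups showed these courses singly. The one highest at NF 23 had 50.4 TPM at NF 12, 160, 249, 407 and 297 TPM in the neurula and 505, 410, 391 and 287 TPM in the tailbud libraries, in stage order. The one highest at NF 30 had 29.5 TPM at NF 12, 152, 159, 231 and 248 TPM in the neurula and 291, 265, 359 and 287 TPM in the tailbud libraries. That highest at NF 26 is the member of rank 5 described above.

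Per spike-in the peaks moved later, and the line between these members and other NF 12 transcripts moved with them. On that scale 9, 24, 30 and 27 members were highest at NF 23, 26, 30 and 33. Of the 46 with the highest TPM at NF 26, 22 stayed there, 14 moved to NF 30 and 10 to NF 33. The Xenopus total per spike-in climbed from each tailbud library to the next, so on this scale a peak within the tailbud could only stay or move later. The other 217 transcripts that met the early, tailbud and NF 12 conditions were highest before the tailbud in TPM, but 120 of them were highest in a tailbud library per spike-in.

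In TPM the dividing line ran through a dense part of these transcripts. The maximum in the tailbud libraries was a median of 1.27 times the highest earlier value, from 1.02 to 4.92. In 41 of 90 members it was under 1.25 times and in 13 it was at least 2 times. Among the 217 transcripts highest earlier, 51 had a tailbud maximum over 0.8 of the earlier one, up to 0.998. Per spike-in the same ratio was at least 1.40 in every member, with a median of 2.31. The Xenopus total per spike-in was 2.88 or more in each tailbud library and at most 2.09 in each earlier one. Any row with a ratio above 1 in TPM thus had a larger one per spike-in. This wider margin follows from the choice of members and the scale, and nothing is read from it. When the whole choice was repeated per spike-in, 226 transcripts qualified, 58 of the 90 members among them. The other 32 reached the threshold at a later stage on that scale, 30 of them at NF 14. The limits kept their numbers there, but the unit is not TPM. At NF 12 the median member was 13.0 on that scale and 17.1 in TPM. A value of 10 is thus another cut-off, and the later onset and the 226 depend on it.

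**Figure D4:**
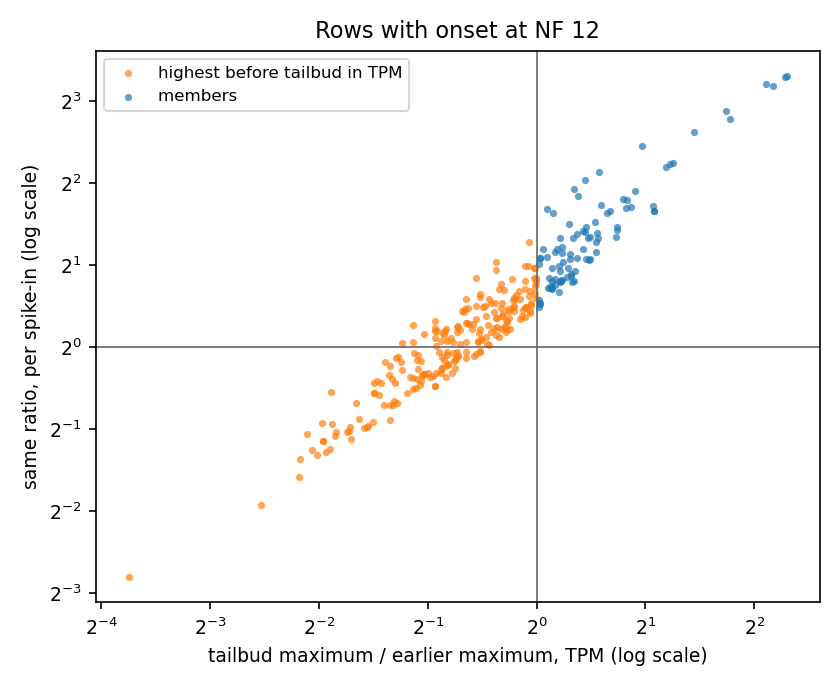
Highest tailbud value over highest earlier value for the 307 transcripts with onset at NF 12, in TPM (horizontal, log scale) and per spike-in (vertical, log scale). Blue points are the 90 members, which lie right of 1 by choice. They therefore also lie above 1 per spike-in, from 1.40 up. Of the 217 orange points left of 1, 120 lie above 1 per spike-in.

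The limit at NF 12 left out the most. The lowest member had 10.04 TPM there and the nearest transcript outside 9.87, and 1089 transcripts that met all other conditions were under 10 TPM at NF 12. The highest early mean inside was 0.986 TPM and the lowest outside 1.06, with 59 transcripts left out by this limit alone. The lowest tailbud mean inside was 12.9 TPM, and 1 transcript, at 7.94 TPM, missed this limit alone. The value before NF 12 nearest to 10 TPM was 9.97 inside and 10.5 outside, where 23 transcripts were left out by it alone.

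Members were compared within the neurula, whose 4 libraries the choice of members treats alike. The choice still favours a climb there, as the maximum must come after them. Among transcripts with onset at NF 12, the median log2 change was 0.32 for members and -0.07 for the 217 highest before the tailbud. The direction and the counts of calls are thus a description. In late against early neurula 69 of 90 members had a higher and 20 a lower mean log2 value. The median log2 change was 0.32 (quartiles 0.03 and 0.65), where that of all rows tested was 0.00. With limma over all 18 libraries 0 members were called in either direction at an adjusted p under 0.05. Of all rows 3.33% were called higher and 2.30% lower. An unadjusted limma p under 0.05 was found in 5 of 90 members and in 4592 of 21670 rows. The lowest adjusted p of a member by limma was 0.0556. The spread in this fit includes the difference between NF 10 and NF 12, which the choice of members makes large. The median standard error of the change was 0.65 for members and 0.31 for all rows. Without the gastrula libraries, an alternative added after the data were seen, it was 0.25 and 0.23. That fit still takes much of its spread from the pre-midblastula and blastula libraries, where the choice of members holds them low. This can make the members' standard errors too small. With only both neurula windows in the fit it was 0.22 for members. There 0 members were called higher and 1 lower, against 4 and 6 of the 19844 rows tested.

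In the fit without the gastrula libraries 11 members were higher and 1 lower in late neurula (limma, adjusted p under 0.05). Of all rows, 8.72% were higher and 6.98% lower. With spike-in scaling 17 were higher and 1 lower, against 8.22% and 0.902% of all rows, and with median ratio scaling 18 and 1, against 12.1% and 6.95%. The 11 and the 1 called in TPM were among those called in both of these. The largest rise was that of the member of rank 4, with 108 and 163 TPM in early and 369 and 1000.2 TPM in late neurula, a log2 change of 2.19 (SE 0.36, limma adjusted p = 0.00267, range 3.13e-05 to 0.795 over all settings). The member of rank 7 went from 54.7 and 31.1 TPM to 119 and 278 TPM, a log2 change of 2.11 (SE 0.42, limma adjusted p = 0.00717, range 0.00108 to 0.628 over all settings). In both, the libraries of the windows did not overlap. The limma fit over all libraries gave SE 0.85 and adjusted p = 0.151 for rank 4. For rank 7 it gave SE 0.66 and adjusted p = 0.0778. The choice of members holds both low in the pre-midblastula and blastula libraries, so their SE without the gastrula libraries can be too small. It also favours their rise. The other 9 members called higher rose by 0.61 to 1.06 on the log2 scale. The single lower member was listed at 0 in both late neurula libraries.

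Leaving out single libraries altered the size of the member change. Without the gastrula libraries, its median was 0.20 without NF 20, 0.36 without NF 16, 0.22 without NF 14 and 0.42 without NF 18. The median of all rows was 0.00, 0.02, 0.00 and 0.01 in the same order. Both early neurula columns are of one kind and both late ones of the other, so within the neurula stage and column kind cannot be told apart. With column kind as a covariate, whose part is then set by the other windows, the median member change was 0.86. That fit takes in NF 10 and NF 12, which differ in kind and which the choice of members sets apart. Without the gastrula libraries, a fit added after the data were seen, it was 0.30, and 69 of 90 members were higher. In that fit 2 members were called higher and 1 lower, against 849 and 469 of the 21774 rows tested. Within the windows, 57 of 90 members were higher at NF 16 than at NF 14 and 64 higher at NF 20 than at NF 18, which does not bear on the difference between the windows. Per spike-in the first of these steps turned, with 24 of 90 members higher at NF 16, as the median of all rows fell by 0.24 on the log2 scale.

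Between early and late tailbud most members were lower in TPM. The choice of members used the mean and the maximum of these 4 libraries, so all values here are a description, and nothing is read from the counts of calls. The mean log2 value was lower in late tailbud for 62 of 90 members and higher for 28. The median change was -0.27 (quartiles -0.59 and 0.06), and that of all rows was -0.12. With column kind as a covariate the median member change was -0.56, and -0.29 when the gastrula libraries were left out as well. NF 23 is the tailbud column whose kind differs from the other 3. With limma over all libraries 0 members were called at an adjusted p under 0.05. Of all rows 2.40% were called higher and 2.76% lower. An unadjusted limma p under 0.05 was found in 2 of 90 members and in 4667 of 21670 rows. Without the gastrula libraries 2 members were called higher and 7 lower, against 5.58% and 11.2% of all rows.

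The 2 members called higher were those of ranks 4 and 8, and the calls only mark which members are described. The member of rank 8 had 319 and 499 TPM in early and 800.0 and 918 TPM in late tailbud, a log2 change of 1.10, and the windows did not overlap. For the member of rank 4 the change was 1.20, with 1890 and 1397 TPM against 2848 and 4922 TPM. The most abundant member, not among the 2, had a similar change of 1.25.

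The largest falls among the 7 members called lower, picked after their values were seen, were in XeXenL6RMv10032738m and XeXenL6RMv10042075m. The choice of members used these libraries, so the calls are no test of the falls. The first had 161, 120, 111 and 36.9 TPM over NF 23, 26, 30 and 33, a log2 change of -1.11. Without NF 33 its change was -0.32. The second had 32.6, 37.2, 22.7 and 12.8 TPM in the same libraries, a change of -0.99.

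The direction in the tailbud depended on the scale. Per spike-in 60 of 90 members were higher in late tailbud, with a median change of 0.18 where all rows had 0.30. Without the gastrula libraries 12 members were then called higher and 0 lower, against 17.2% and 1.88% of all rows, and with median ratio scaling 3 were higher and 2 lower, against 8.53% and 7.25%. None of the 7 members called lower in TPM was called lower under all 3 scalings, which is likewise a description. In TPM without the gastrula libraries, single tailbud libraries were also left out. The median member change was then -0.21 without NF 33, -0.07 without NF 26, -0.36 without NF 23 and -0.34 without NF 30. The median of all rows was -0.07, -0.07, -0.18 and -0.18 in the same order.

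**Figure D5:**
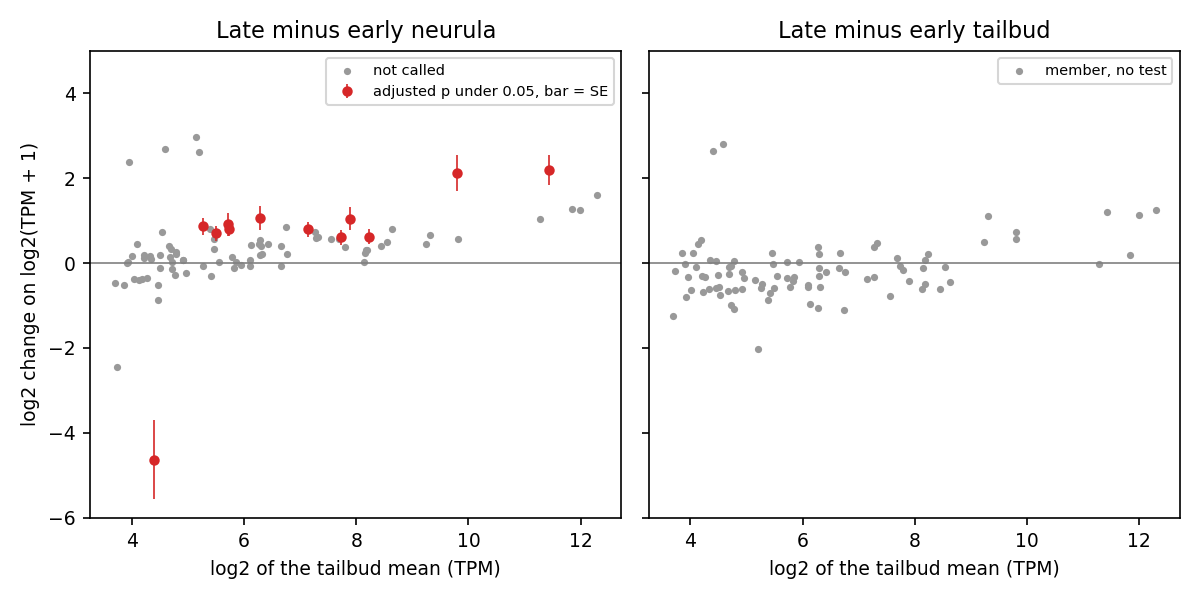
Log2 change on log2(TPM + 1) of the 90 members from early to late neurula (left) and from early to late tailbud (right), against the log2 of their mean tailbud TPM. The fit leaves out the gastrula libraries. Red points in the left panel are the 12 members that passed an adjusted p of 0.05, with bars of 1 SE. Of these, 11 lie above 0, a direction that the choice of members favours. In the right panel, shown without a test since the choice of members used these libraries, 62 of 90 points lie below 0.

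A few members went back and forth between a value and a listed 0 from stage to stage. From NF 12 on, 74 of 90 were at 10 TPM or more in every library, and 7 were listed at 0 at least once, 20 times in all. Among the 11348 rows that averaged 10 TPM or more from NF 12 on, 2.89% had such a 0. The values of the members of ranks 56 and 68 moved in shared steps. They were both at 14.6 TPM at NF 12 and both at 20.3 TPM at NF 33, and stood at 59.4 against 29.7 TPM at NF 20, 68.4 against 22.8 TPM at NF 23 and 35.0 against 52.5 TPM at NF 30. In all 5 libraries where both were above 0 from NF 12 on, the ratio was one of small whole numbers (1:1, 2:1, 3:1, 2:3 and 1:1) within 0.5%. The smallest value shared at NF 12 is itself above the onset threshold. Read counts are not given, so how near these values and zeros lie to the counting floor was not tested. Without the 7 members, 83 remained, of which 16, 43, 9 and 15 were highest at NF 23, 26, 30 and 33, and all 11 rises in the neurula and all 9 calls in the tailbud were among them, while the 1 fall in the neurula was not.

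Set beside other late transcripts with the same early and tailbud limits, the members had the higher tailbud levels, which their choice by a tailbud maximum favours. The median tailbud mean was 52.7 TPM for the 90 members, 19.2 for the 217 with onset at NF 12 that were highest earlier, 28.9 for 152 with onset at NF 10 and 27.9 for 294 with onset at NF 14. At NF 12 the order was another, with medians of 17.1, 26.0, 72.9 and 3.07 TPM. A tailbud mean of 100 TPM or more was found in 33.3% of the members and in 5.53%, 17.1% and 16.0% of the other sets.

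Within the neurula the members lay between the other sets. The median change from early to late neurula was 0.32 for the members, -0.07 for the 217, -0.20 for onset at NF 10 and 0.60 for onset at NF 14. From early to late tailbud the medians were -0.27, -0.69, -0.78 and -0.46. The sets were cut on the same libraries and their difference was not tested, so none of this is called particular to the members.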

How the data were processed

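RNA was measured in 18 whole-embryo libraries, 1 per stage. The submitters' processing notes list RSEM, Bowtie, Trimmomatic and CASAVA 1.8.2 without saying what each did. The transcripts mapped to are not named in any source used. The deposited values were TPM in 9 columns. The other 9 deposited columns hold an abundance signal on the same scale whose sum exceeds 1000000, without a stated reason. From these, 92 spike-in rows were dropped and each library was rescaled to 1000000. On the spike-in scale, values were divided by the spike-in total and by 1 common factor.

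The members and lists were chosen with earlier results of these data known. Windows were set from the stage labels. Values were tested as log2(TPM + 1), which understates folds of low rows, with limma 3.58.1 (R 4.3.3; lmFit, then eBayes with a mean trend) over the 21670 rows averaging 1 TPM or more, all 90 members among them, in 7 windows, with Benjamini-Hochberg adjustment. The fit pools the spread within all windows, which hold 2 to 5 libraries. The p-values thus measure the spread between neighbouring stages of all windows, also those outside the comparison. In simulated libraries of 21670 rows, a 2-fold change was recovered for 35.5% of 200 abundant rows in late versus early neurula and 28% in late versus early tailbud, and a 4-fold change for 85% and 85.5%. These rows were drawn from the rows tested, members or not, whose mean log2(TPM + 1) was at least that of 10 TPM. They had a level mean before the change. The median standard error was 0.31 for all rows and 0.65 for members, so these rates do not hold for members.

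Identifiers are those of the 2 members with the highest tailbud mean, and of the 2 with the largest fall in the tailbud. The rule for the latter asked for a call over all windows, which no member met, so they come from the fit without the gastrula libraries. Lists of tissue genes were not run, since no symbols were found. Alternatives were other scalings, pseudocounts, filters, weights, covariates and libraries left out. Sequences are not shown, since none is paired with these names in the sources used here.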

Additional observations from a re-analysis of the deposited data

How the results depend on the processing

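No paired analysis was possible because no labels number replicates across stages. The choice of members gave 226 with spike-in scaling, where its limits are not in TPM. An onset threshold of 20 TPM gave 53 (42 of them shared). The count stayed within 1.5 times of 90 in other settings, though the members changed. It was 108 with median ratio scaling (82 shared) and 133 with an onset threshold of 5 (70 shared). An early ceiling of 0.5 gave 82 (82 shared), and columns not rescaled gave 117 (80 shared). From early neurula to late tailbud the members' sum grew 11.2-fold per spike-in, against 4.54-fold.

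In late versus early neurula 1220 rows were called. The number was 1926 with median ratio scaling, 771 with a filter at 5 TPM, 10 with both windows alone, 641 with array weights, 313 with column kind as covariate, 2098 as a linear trend, and without the gastrula libraries 3417 in TPM, 2074 with spike-in and 4260 with median ratio scaling. The split was 722 higher and 498 lower in TPM, 915 and 63 with spike-in scaling, and 1299 and 627 with median ratio scaling. Members called, 0 in the fit over all windows, were 1 with median ratio scaling, 2 with pseudocount 5, 1 with both windows alone, 2 with array weights, 12, 18 and 19 without the gastrula libraries in these 3 scalings, and 3 without them and with column kind as covariate. Leaving out 1 library at a time, with or without the gastrula libraries, gave 178 to 6087 rows, 0 to 20 members and a median member change of 0.20 to 0.42. With column kind as covariate that median was 0.86, and 0.30 when the gastrula libraries were left out too.

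In late versus early tailbud 1120 rows were called, 521 higher and 599 lower. The number was 2552 with spike-in scaling (2371 higher, 181 lower), 2701 without a filter, 10 with both windows alone, 719 with column kind as covariate, 2541 as a linear trend, and without the gastrula libraries 2552 with that covariate, 3661 in TPM, 4345 with spike-in and 3520 with median ratio scaling. Median ratio scaling of all libraries gave 1048 higher and 439 lower. Members called were 0 in the fit over all windows and in each alternative that kept the gastrula libraries, 9, 12 and 5 without the gastrula libraries in these 3 scalings, and 4 without them and with column kind as covariate. Leaving out 1 library gave 40 to 5384 rows, 0 to 15 members and a median of -0.36 to -0.07. With column kind as covariate it was -0.56, and -0.29 without the gastrula libraries. The median turned to 0.18 with spike-in scaling, with or without the gastrula libraries. Where a window keeps 1 library, it is assumed to vary like the others. The causes of these moves were not tested.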
